A study of Mus musculus with 25 samples.

Results

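The genes described are 8 members of the neutrophil recruitment system: the chemokines Cxcl1 (ENSMUSG00000029380), Cxcl2 (ENSMUSG00000058427), Cxcl3 (ENSMUSG00000029379), Cxcl5 (ENSMUSG00000029371), Ccl20 (ENSMUSG00000026166) and Ccl2 (ENSMUSG00000035385), the growth factor Csf3 (ENSMUSG00000038067) and the receptor Cxcr2 (ENSMUSG00000026180). They were chosen by symbol, and all 8 were present among the 21106 genes listed for pups and the 19942 listed for adults. RNA of mouse esophagus was sequenced in 25 libraries from 7 genotype groups, in an experiment on pups and an experiment on adults. All 8 genes passed the filter on low values in both experiments, so no member was left out of a test.

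The pups were 7 to 10 days old and formed 3 groups of 3 libraries: NRF2L30F/L30F::K5Cre mice, KEAP1flox/flox::K5Cre mice and wild-type mice. The adults were 6 to 9 weeks old, were sampled 1 week after tamoxifen at 100 µg per g body weight, and formed 4 groups of 4 libraries: NRF2L30F/+::K5CreERT2, NRF2L30F/L30F::K5CreERT2, KEAP1flox/flox::K5CreERT2 and wild-type mice. The L30F knock-in carries a cancer-derived change at codon 30 of NRF2, the transcription factor of the oxidative stress response, and KEAP1 is the protein that sends NRF2 for degradation. The keratin 5 promoter drove Cre, so that its activity is limited to cells that use this promoter, mainly basal epithelial cells. Cre was constitutive in pups and tamoxifen-inducible in adults. The labels do not say whether wild-type mice carried Cre or whether the libraries of a group came from different animals, so the p-values measure the spread between libraries, which may be technical.

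Neutrophils leave the blood and enter an inflamed epithelium along gradients of CXC chemokines that carry the glutamate-leucine-arginine motif. Keratinocytes, fibroblasts, endothelial cells and macrophages release these chemokines after stimulation by interleukin-1, tumour necrosis factor or interleukin-17, largely through the transcription factor NF-κB, and neutrophils sense them through the receptor CXCR2. G-CSF, the product of Csf3, drives the formation and release of neutrophils from bone marrow, CCL2 recruits monocytes through CCR2, and CCL20 recruits cells that carry CCR6, among them interleukin-17-producing T cells.

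Cxcl5, Cxcl3, Cxcl1 and Cxcl2 lie on mouse chromosome 5 in this order, in a cluster with Ppbp, Pf4 and Cxcl15, while Ccl20 and Cxcr2 lie on chromosome 1 and Ccl2 and Csf3 on chromosome 11. RefSeq promoter sequences (build GRCm38.p6) were at hand for 5 of the 8 members. Their last 120 bases before the annotated start, all on the + strand, are shown because several of these genes moved together. Capitals mark the longest run that the Cxcl1, Cxcl2 and Cxcl3 promoters share, which follows the letter pattern of sites bound by NF-κB.
Cxcl1, chr5:90891125-90891244: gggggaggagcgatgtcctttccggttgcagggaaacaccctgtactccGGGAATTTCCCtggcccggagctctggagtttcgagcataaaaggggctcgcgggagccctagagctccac
Cxcl2, chr5:90903779-90903898: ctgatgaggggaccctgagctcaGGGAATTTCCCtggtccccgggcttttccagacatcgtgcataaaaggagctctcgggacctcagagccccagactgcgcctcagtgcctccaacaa
Cxcl3, chr5:90785981-90786100: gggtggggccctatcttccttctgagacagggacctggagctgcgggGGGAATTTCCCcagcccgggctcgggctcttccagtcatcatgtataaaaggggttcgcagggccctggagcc
Ccl20, chr1:83116646-83116765: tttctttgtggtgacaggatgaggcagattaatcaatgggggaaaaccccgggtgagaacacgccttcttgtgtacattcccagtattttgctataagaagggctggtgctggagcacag
Cxcr2, chr1:74153874-74153993: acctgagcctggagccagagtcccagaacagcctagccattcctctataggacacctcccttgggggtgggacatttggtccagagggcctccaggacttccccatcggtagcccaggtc
The shared run GGGAATTTCCC has 11 letters and stood at bases -71 to -61 from the start in Cxcl1, -97 to -87 in Cxcl2 and -73 to -63 in Cxcl3. Searched on both strands of windows of 300 bases around each start, it occurred in 14 of 32851 RefSeq promoters (0.0426%). These include the promoters of Cxcl1, Cxcl2 and Cxcl3, which defined the run, so its presence there was fixed in advance. It did not occur in those of Ccl20 and Cxcr2. For NF-κB only this exact run was searched, so other forms of its sites were not looked for. TGACNNNGC, the core of the antioxidant response element to which NRF2 binds, was found on neither strand of these 5 windows, against 12.4% of all promoters. These are matches of letters, not measured binding sites.

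Keap1 had 725.4 to 825.0 normalised counts in KEAP1-deficient pups, against 1053 to 1094 in wild-type pups, and 720.9 to 811.5 in KEAP1-deficient adults, against 1077 to 1192 in wild-type adults. This checks the KEAP1-deficient and wild-type labels and says nothing of the L30F libraries. Depth, in units of 1000000 reads, was 18.8 to 19.7 in pups. In adults it moved with genotype, at 12.8 to 16.9 in L30F/+, 10.9 to 11.6 in L30F/L30F and 22.5 to 31.3 in KEAP1-deficient libraries, against 27.5 to 32.3 in wild type. Markers of squamous epithelium were abundant in every library, with sums of 136222 normalised counts or more, and differed with genotype, as given beside the results. The pup library L30F/L30F number 3 had no reads of the Y-linked gene Ddx3y, unlike the other 24 libraries. Values below are normalised read counts. Fold changes are given on the scale of log2(normalised count + 1), which understates the change of genes with few reads, and adjusted p-values are from limma with Benjamini-Hochberg adjustment over all genes tested. A gene is called where its adjusted p is under 0.05. Pup and adult tables were normalised separately, and comparisons with wild type within an experiment share the same wild-type libraries.

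In the adult esophagus without KEAP1, 7 of the 8 genes rose against wild type, in a comparison that called 46.8% of all genes tested, 24.1% as higher. Cxcl1, Cxcl2, Cxcl3, Cxcl5, Ccl20, Csf3 and Cxcr2 were called, and Ccl2 was not. The median log2 fold change of the 8 genes was 4.92, and that of all genes was -0.01. For all 8 genes the lowest KEAP1-deficient value exceeded the highest wild-type value, a pattern that 25.9% of all genes showed.

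Cxcl5, a ligand of CXCR2 made by epithelial cells, had 685.1, 305.1, 963.4 and 452.7 normalised counts in KEAP1-deficient adults, against 2.03, 20.3, 3.73 and 1.34 in wild-type adults. The lowest KEAP1-deficient library was far above the highest wild-type library. Its log2 fold change was 6.73 (SE 0.88, n = 4 per group, adjusted p = 1.7e-05), and 7.41 without wild-type library 2, which held the most Cxcl5 reads of its group. Cxcl3, a further CXCR2 ligand, had 227.0, 40.7, 292.9 and 128.8 in KEAP1-deficient adults, against 1.35, 8.7, 0.622 and 0 in wild-type adults. The groups were again far apart, with a log2 fold change of 5.81 (adjusted p = 1.1e-05, SE 0.75), and 6.46 without wild-type library 2.

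Cxcl2, known as macrophage inflammatory protein 2, had 406.2, 126.2, 387.5 and 286.7 normalised counts in KEAP1-deficient adults, against 7.45, 11.6, 5.6 and 1.34 in wild-type adults, without overlap. The log2 fold change was 5.44 (SE 0.91, adjusted p = 0.00015). Cxcl1, the keratinocyte-derived chemokine KC, had 248.4, 59.1, 63.1 and 78.6 in KEAP1-deficient adults, against 0, 6.38, 1.24 and 7.39 in wild-type adults. KEAP1-deficient library 1 was well above the other 3 libraries of its group, which lay close together. Cxcl1 rose by a log2 fold change of 4.77 (adjusted p = 0.00012, SE 0.78), or 4.17 without wild-type library 1, in which the gene had no read.

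Ccl20, the ligand of CCR6, had 78.3, 22.4, 19.5 and 18.9 normalised counts in KEAP1-deficient adults, against 0, 0.58, 0 and 0 in wild-type adults. Wild type therefore held a single read of Ccl20 over 4 libraries, against 219 reads in KEAP1-deficient libraries. The ratio per size factor was 240.5, with a 95% interval for counting error of 42.7 to 9544, and the fitted log2 fold change was 4.72 (SE 0.67, adjusted p = 2.9e-05). Csf3 had 163.4, 18.4, 66.8 and 24.7 in KEAP1-deficient adults, against 0, 0.58, 0.622 and 0.672 in wild-type adults, where no library held more than a single read. With 436 reads against 3, the ratio was 159.6 (95% interval 54.3 to 777.0, counting error only). The fitted log2 fold change of Csf3 was 5.08 (SE 0.62, adjusted p = 6.3e-06), and 4.49 without KEAP1-deficient library 1, its highest.

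Cxcr2, the neutrophil receptor for the CXC ligands above, had 812.4, 494.4, 989.7 and 611.3 normalised counts in KEAP1-deficient adults, against 172.0, 234.8, 281.2 and 173.4 in wild-type adults. The groups did not overlap, and the rise of Cxcr2 was the smallest of the 7 on the log2 scale, at 1.73 (SE 0.29, adjusted p = 0.00014). Ccl2, the monocyte chemoattractant, had 162.8, 186.9, 99.9 and 171.0 in KEAP1-deficient adults, against 59.6, 93.3, 70.3 and 67.9 in wild-type adults. The groups did not overlap, but the log2 fold change of 1.06 (SE 0.55) had an adjusted p of 0.13. It was called when the 2 groups were fitted alone (adjusted p = 0.0021) and with limma-voom on recovered reads (adjusted p = 0.025).

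Within the KEAP1-deficient adults the members did not keep a single order of libraries. Library 2 had the lowest value of its group for 6 members, Cxcl1, Cxcl2, Cxcl3, Cxcl5, Csf3 and Cxcr2, and the highest for Ccl2. Library 1 had the highest value for Cxcl1, Cxcl2, Ccl20 and Csf3, and library 3 for Cxcl3, Cxcl5 and Cxcr2. The call of all 7 genes held in each of the 16 fits that left out a library.

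**Figure D1:**
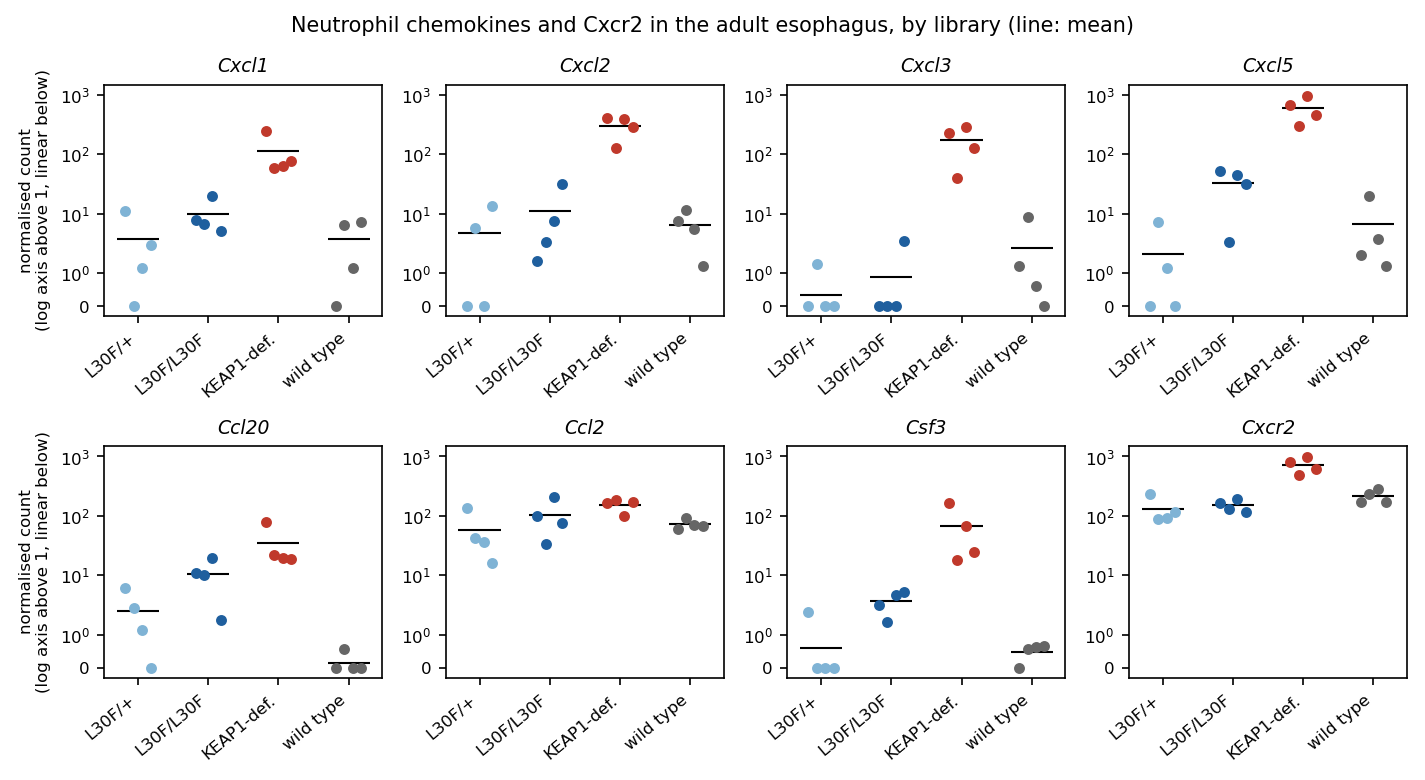
Normalised counts of the 8 genes in each of the 16 adult libraries, by genotype (log axis above 1, linear below; points are libraries, lines are group means). For all 8 genes the KEAP1-deficient points all lie above the wild-type points, while L30F/+ and wild type overlap throughout.

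Striated muscle markers, the muscle of the esophageal wall, moved with the same contrast: they summed to 129371 to 185618 normalised counts in KEAP1-deficient adults, against 312880 to 352420 in wild-type adults. With their mean as a covariate, 3 of the 8 genes were called, Cxcl1, Cxcl3 and Csf3, as were 2301 genes in all against 9290. Since the covariate differs between the genotypes without overlap, the 2 cannot be told apart in that fit.

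Receptors and factors that pair with the members rose as well. Of 24 further attractants, growth factors and receptors, 22 were tested and 17 rose in KEAP1-deficient adults, 2 fell (Pf4 and Ackr2) and 3 were not called, with a median log2 fold change of 2.43. Csf3r, the G-CSF receptor, averaged 1583 ± 516.5 normalised counts in KEAP1-deficient adults and 67.8 ± 60.6 in wild-type adults (SD, n = 4 each), with a log2 fold change of 4.90 (adjusted p = 1.3e-05). Ccr6, the receptor of CCL20, averaged 34.2 ± 12.3 against 1.6 ± 0.876 in wild type (log2 fold change 3.77, adjusted p = 0.00076). Ccr2, the receptor of CCL2, averaged 2823 ± 530.2 against 469.8 ± 79.9 in wild type (log2 fold change 2.58, adjusted p = 9.5e-05). Cxcr1, the other receptor for CXC ligands of this family, had 13, 8.79, 23.3 and 6.55 in the KEAP1-deficient libraries, against 2 reads over the 4 wild-type libraries (adjusted p = 0.0014).

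Among the remaining genes of that list, Ackr1 and Cxcr4 had the smallest adjusted p-values. Ackr1, a chemokine-binding receptor of venules, rose by a log2 fold change of 1.24 (adjusted p = 2.8e-06). Cxcr4, the receptor of CXCL12, rose by 2.91 (adjusted p = 3.2e-06). Cxcl16, a membrane-bound chemokine, rose by 2.29 and Ccr1, a receptor of CC chemokines, by 2.56 on the log2 scale. Of 22 genes of the interleukin-1, TNF, interleukin-17 and NF-κB systems, 19 rose in KEAP1-deficient adults and none fell, with a median log2 fold change of 1.2. Nfkbia, the NF-κB inhibitor that NF-κB itself induces, rose by 1.40 (SE 0.08, adjusted p = 1.9e-09), and Tnfaip3, the feedback inhibitor A20, by 2.01 (SE 0.22, adjusted p = 2.6e-06). Il1b, interleukin-1β, averaged 1277 ± 742.2 normalised counts in KEAP1-deficient adults and 19.4 ± 22.6 in wild-type adults (log2 fold change 6.32, adjusted p = 8.0e-07), and Il1a rose by 1.96. Il17a, interleukin-17A, a gene picked out after its values were seen, averaged 75.6 ± 29 against 0.336 ± 0.672 in wild type, from 452 reads against 2.

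Markers of leukocytes moved with the same contrast. Of 17 neutrophil markers tested, 13 rose, 2 fell (Camp and Il1r2) and 2 were not called (Ngp and Mpo), and the list summed to 3372 to 8087 normalised counts in KEAP1-deficient adults, against 699.7 to 1684 in wild-type adults. Ltf made up 36.6% of the summed mean in KEAP1-deficient adults and Il1r2 63% in wild-type adults. The lists share genes, so their counts are not separate. Csf3r, Cxcr1 and Fpr1 are also among the further attractants and receptors above, as is Ccr2 of the monocyte and macrophage list. Ly6g, the defining surface marker of mouse neutrophils, had 15.8, 12.8, 17.3 and 16.7 in KEAP1-deficient adults and no read in any wild-type library, while the same wild-type libraries held 1369 reads of Cxcr2 over the 4. All 5 pan-leukocyte markers rose, with sums of 6174 to 7853 in KEAP1-deficient adults, against 1234 to 2282 in wild-type adults, as did all 10 monocyte and macrophage markers. Of 6 T-cell markers, 5 rose and 1 was not called, with sums of 378.0 to 581.2 in KEAP1-deficient adults, against 38.8 to 73.9 in wild-type adults. None of 4 B-cell markers was called. Fibroblast markers, of which 4 of 6 rose and none fell, summed to 296041 to 387316 in KEAP1-deficient adults, against 126433 to 155734 in wild-type adults. Squamous markers summed to 307279 to 379005 in KEAP1-deficient adults, against 961975 to 1281124 in wild-type adults, with 3 of 8 higher, 3 lower and 2 not called. The part of these cells in the rises of the members was not tested. In RNA of whole tissue, more cells of a type and more RNA per cell cannot be told apart.

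**Figure D2:**
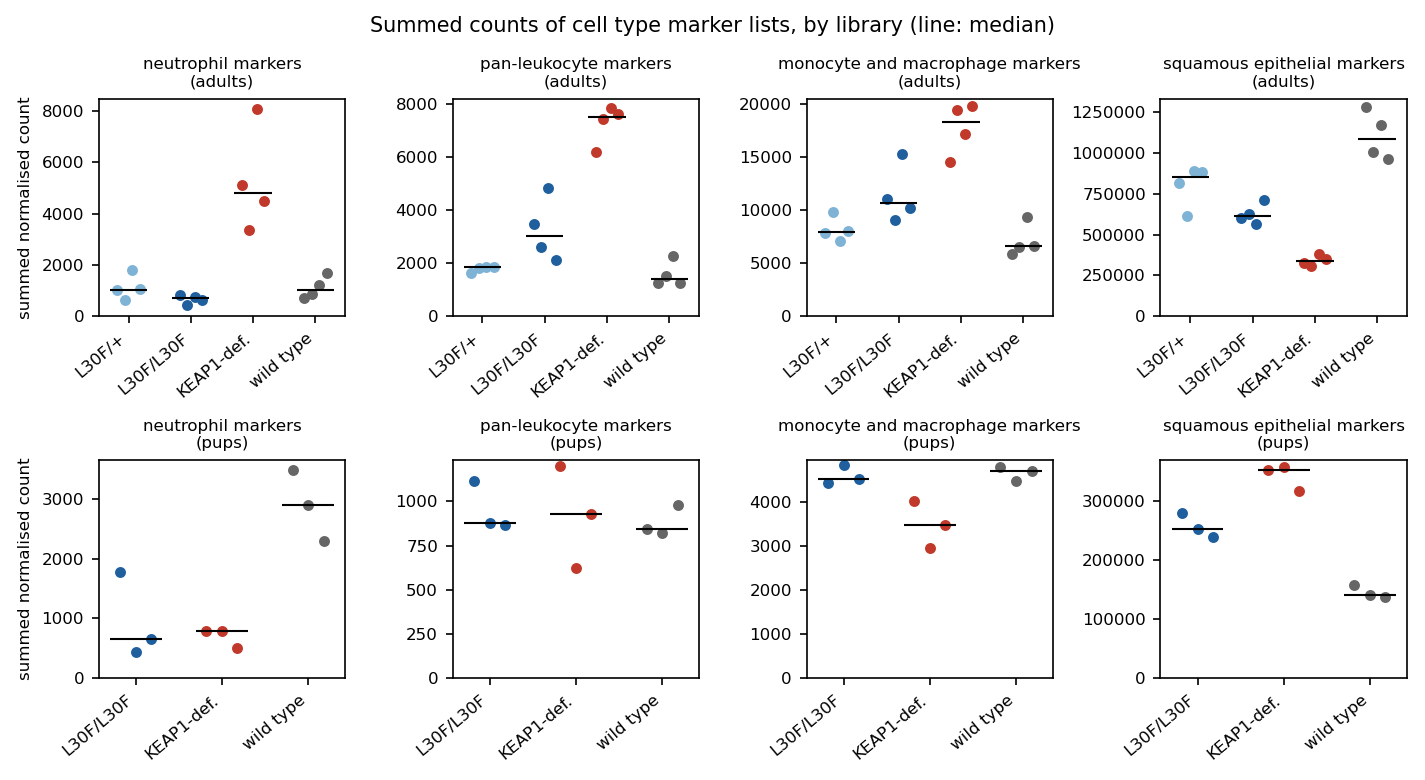
Summed normalised counts of cell type marker lists in each library (linear axes from 0; adults above, pups below; points are libraries, lines are group medians). The neutrophil sum of KEAP1-deficient adults, 3372 to 8087, lies above all other adult groups, while in pups the wild type is highest, at 2302 to 3496. Ltf alone made up 82.7% of that wild-type pup sum, by group means. Of 13 neutrophil markers tested, 5 rose and 2 fell in KEAP1-deficient pups, and 7 rose and 1 fell in L30F/L30F pups.

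In L30F/L30F adults 1 of the 8 genes, Ccl20, rose against wild type, in a comparison that called 22.3% of all genes, 11.8% as higher. Ccl20 had 11, 9.95, 19.9 and 1.74 normalised counts in L30F/L30F adults, against 0, 0.58, 0 and 0 in wild-type adults. Each mutant library was above each wild-type library, as was so for 2 of the 8 members and 12.7% of all genes, although library 4 held few reads. The ratio was 69 (27 reads against 1, 95% interval 11.4 to 2824, counting error only), and the fitted log2 fold change was 3.06 (SE 0.67, adjusted p = 0.0045). The median log2 fold change of the 8 genes was 0.88, against -0.01 over all genes.

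The other members of L30F/L30F adults did not pass the test. Cxcl5 had 53.6, 3.32, 45.9 and 31.4 in L30F/L30F adults, against 2.03, 20.3, 3.73 and 1.34 in wild-type adults. Mutant libraries 1, 3 and 4 were above every wild-type library and mutant library 2 was not, and the log2 fold change of 2.24 (SE 0.88) had an adjusted p of 0.081. Cxcl5 was called without L30F/L30F library 2 (3.08, adjusted p = 0.014) or wild-type library 2 (2.92, adjusted p = 0.031). Csf3 had 3.16, 1.66, 4.59 and 5.23 in L30F/L30F adults, against 0, 0.58, 0.622 and 0.672 in wild type, without overlap, with a ratio of 7.66 (9 reads against 3, 95% interval 1.91 to 44) and an adjusted p of 0.071, or 0.046 without KEAP1-deficient library 1, which enters the shared fit. The L30F/L30F libraries were the shallowest of the adults. In a single random draw of reads thinned to the lowest depth, 3 members were called, Ccl20, Cxcl5 (log2 fold change 3.83, adjusted p = 0.0068) and Csf3 (2.02, adjusted p = 0.046). The draw was not repeated, and these genes had few wild-type reads, so the calls of Cxcl5 and Csf3 may depend on which reads were kept.

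Cxcl1 had 7.89, 6.63, 19.9 and 5.23 normalised counts in L30F/L30F adults, against 0, 6.38, 1.24 and 7.39 in wild type, which overlapped (log2 fold change 1.5, adjusted p = 0.18). The overlap was as plain for Cxcl2, with 1.58 to 31.4 in L30F/L30F adults, against 1.34 to 11.6 in wild type, and for Ccl2, with 33.2 to 210.9 against 59.6 to 93.3 in wild type. Cxcl3 gave 2 reads in L30F/L30F adults, both in library 4, against 18 reads in wild type. Cxcr2 had 164.1, 131.0, 189.5 and 118.6 in L30F/L30F adults, against 172.0, 234.8, 281.2 and 173.4 in wild type, and its log2 fold change of -0.50 (SE 0.29) had an adjusted p of 0.22.

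The further attractants and receptors held 4 called genes of 22 in L30F/L30F adults, all higher: Ackr1 (log2 fold change 0.87, adjusted p = 0.00051), Ccr2 (1.71, adjusted p = 0.0073), Cxcr4 (1.03) and Cxcl16 (0.84). Csf3r averaged 160.1 ± 116.4 against 67.8 ± 60.6 in wild type and was not called (adjusted p = 0.13), nor were Ccr6 (adjusted p = 0.19) and Cxcr1 (adjusted p = 0.43). Of the 22 upstream genes 5 rose and none fell. Il1a, interleukin-1α, which epithelial cells store, averaged 374.1 in L30F/L30F adults and 159.6 in wild-type adults (log2 fold change 1.24, adjusted p = 0.00044). Nfkbia rose by 0.47, Nfkb1 by 0.39 and Cebpb by 0.35 on the log2 scale, each with an adjusted p under the threshold, and Il17c was the fifth. The neutrophil markers summed to 427.8 to 810.8 in L30F/L30F adults, against 699.7 to 1684 in wild-type adults. Il1r2 alone made up 46.6% of the summed mean in L30F/L30F and 63% in wild-type adults. Of the 17 markers tested, Ly6g and Retnlg rose, Il1r2 fell and 14 were not called. All 5 pan-leukocyte markers rose, with sums of 2115 to 4824, against 1234 to 2282 in wild-type adults. Squamous markers summed to 564265 to 708267 in L30F/L30F adults, against 961975 to 1281124 in wild type. Gene by gene they were split, with 2 of 8 higher, 2 lower and 4 not called, and a median log2 fold change of 0.11. Fibroblast markers summed to 190136 to 263478, against 126433 to 155734 in wild type, with 3 of 6 higher, 1 lower and 2 not called. The part of these cells in the rise of Ccl20 was not tested.

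In L30F/+ adults none of the 8 genes was called against wild type by limma, in a comparison that called 9.7% of all genes. At an unadjusted p under 0.05 there was 1, and limma-voom called 0. That gene was Cxcr2, with 230.3, 88.8, 92 and 118.6 in L30F/+ adults, against 172.0, 234.8, 281.2 and 173.4 in wild-type adults. Library 1 lay inside the wild-type range and the other 3 L30F/+ libraries below it, and the log2 fold change of -0.78 (SE 0.29) had an adjusted p of 0.099. Without L30F/+ library 1, Cxcr2 was called (-1.08, adjusted p = 0.017). Ccl20 had 6.09, 2.87, 1.21 and 0 in L30F/+ adults, against a single read in wild type, a ratio of 16.7 (8 reads against 1, 95% interval 2.24 to 740.3), and an adjusted p of 0.23. Ackr1 (log2 fold change 0.55, adjusted p = 0.024) and Il1a (1.10, adjusted p = 0.0034) were the called genes of the lists of further attractants and upstream genes, both higher. Ccr2, Ccr6, Csf3r and Cxcr1 were not called, with adjusted p-values of 0.92, 0.86, 0.91 and 0.71.

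Ordered by mean, Ccl20 was at 34.8 ± 29.1 in KEAP1-deficient, 10.7 ± 7.42 in L30F/L30F, 2.54 ± 2.64 in L30F/+ and 0.145 ± 0.29 in wild-type libraries (SD, n = 4 each). No neighbouring pair in that order was called, with adjusted p-values of 0.08, 0.088 and 0.23. Cxcl5 followed another order, at 601.6 ± 287.5 in KEAP1-deficient, 33.5 ± 22.2 in L30F/L30F, 6.85 ± 9.02 in wild-type and 2.09 ± 3.43 in L30F/+ libraries. KEAP1-deficient and L30F/L30F adults differed for Cxcl5 (log2 fold change -4.49 in L30F/L30F over KEAP1-deficient, SE 0.88, adjusted p = 0.0017), L30F/L30F and wild type did not pass (0.081), nor did L30F/+ and wild type (0.37). For Cxcr2 the order was KEAP1-deficient 727.0 ± 218.9, wild type 215.4 ± 52.8, L30F/L30F 150.8 ± 32.2 and L30F/+ 132.4 ± 66.6, and the step below KEAP1-deficient was the called one, since wild type against L30F/L30F had an adjusted p of 0.22 and L30F/L30F against L30F/+ 0.56.

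L30F/L30F against L30F/+ adults gave 1 called member, Cxcl5, where 16.4% of all genes were called, 8.07% as higher. It had 53.6, 3.32, 45.9 and 31.4 in L30F/L30F adults, against 0, 7.16, 1.21 and 0 in L30F/+ adults. Mutant library 2 of the homozygotes lay below library 2 of the heterozygotes, and the other homozygous libraries lay above all heterozygous ones. The log2 fold change was 3.57 (SE 0.88, adjusted p = 0.013), 4.40 without homozygous library 2 and 4.23 without heterozygous library 2. The call ended with limma-voom (adjusted p = 0.25) and with the muscle covariate (adjusted p = 0.083). Without L30F/+ library 1, Ccl20 (2.19, adjusted p = 0.043), Csf3 (2.15, adjusted p = 0.03) and Ccl2 (1.51, adjusted p = 0.046) were called as well, and without L30F/L30F library 4 Ccl20 was (2.33, adjusted p = 0.02). Csf3 also passed without KEAP1-deficient library 1 (adjusted p = 0.047).

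Set directly against each other, L30F/L30F adults had less than KEAP1-deficient adults of 6 members, where 26.4% of all genes were called, 13.5% as lower. Cxcl1, Cxcl2, Cxcl3, Cxcl5, Csf3 and Cxcr2 fell, with log2 fold changes of -3.27, -5.21, -6.57, -4.49, -3.46 and -2.24. In each of the 6 the groups did not overlap, as for 15.7% of all genes. Adjusted p-values ran from 1.5e-05 for Cxcl3 to 0.0058 for Cxcl1. Cxcl1 lost its call with an offset of 0.1 (adjusted p = 0.081) and Csf3 with limma-voom (adjusted p = 0.051). The value of Cxcl2 was -5.91 without L30F/L30F library 4, that of Cxcl5 -3.66 without L30F/L30F library 2, and that of Csf3 -2.87 without KEAP1-deficient library 1. Ccl20 differed by -1.66 (SE 0.67, adjusted p = 0.08) and overlapped in part, since L30F/L30F library 3 had 19.9 and the lowest KEAP1-deficient library 18.9. It was called without L30F/L30F library 3 (-2.05, adjusted p = 0.043) and with an offset of 4 (-1.34, adjusted p = 0.036). Ccl2 differed by -0.80 (95% interval -1.98 to 0.37), an interval that leaves room for a difference of either sign.

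L30F/+ adults had less than KEAP1-deficient adults of all 8 members, where 44.8% of all genes were called, 23.2% as lower. Log2 fold changes ran from -1.78 for Ccl2 to -8.06 for Cxcl5, and 7 members did not overlap between the groups, as for 21.2% of all genes. For Ccl2 the groups overlapped, at 134.0, 43, 36.3 and 16.3 in L30F/+ adults, against 162.8, 186.9, 99.9 and 171.0 in KEAP1-deficient adults, and its call ended without L30F/+ library 4 (log2 fold change -1.33, adjusted p = 0.055). The value of Cxcl1 was -4.87, and -5.50 without L30F/+ library 1, and that of Cxcl2 was -6.46, and -7.19 without L30F/+ library 4. That of Cxcl5 was -8.72 without L30F/+ library 2, and that of Csf3 was -5.16, and -4.57 without KEAP1-deficient library 1. In both comparisons with KEAP1-deficient adults no member was called with the muscle covariate, under which 43 genes in all were called for L30F/L30F and 139 for L30F/+.

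**Figure D3:**
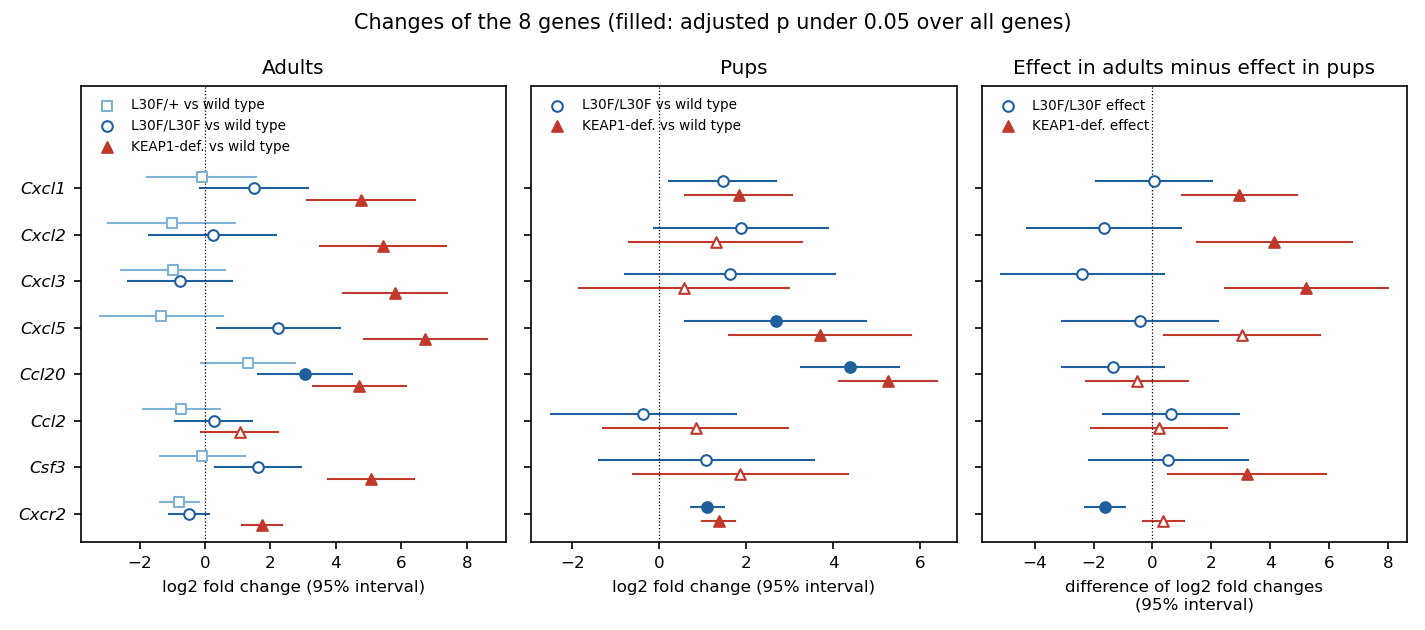
Log2 fold changes of the 8 genes with 95% intervals, for adults (left), pups (middle) and the difference of a genotype's effect between adults and pups (right); filled symbols have an adjusted p under 0.05. In adults 7 KEAP1-deficient values are filled, between 1.73 and 6.73, while 1 L30F/L30F value (Ccl20, 3.06) and no L30F/+ value is.

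In KEAP1-deficient pups 4 of the 8 genes rose against wild type, Cxcl1, Cxcl5, Ccl20 and Cxcr2, where 49.5% of all genes were called, 26.3% as higher. The median log2 fold change of the 8 genes was 1.59, against -0.05 over all genes, and 4 members had no overlap with wild type, as for 30.3% of all genes. Ccl20 had 65.1, 60.9 and 114.5 normalised counts in KEAP1-deficient pups, against 0, 3.56 and 0.856 in wild-type pups. The groups were far apart, at a log2 fold change of 5.26 (adjusted p = 1.5e-05, SE 0.51, n = 3 per group). Cxcl5 had 19.2, 53 and 23.8 against 0, 3.56 and 1.71 in wild-type pups. It rose by 3.70 (SE 0.93, adjusted p = 0.0085), or 3.09 without wild-type library 1, and lost its call with limma-voom (adjusted p = 0.05 after rounding).

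Cxcl1 had 10.7, 21.4 and 19.4 in KEAP1-deficient pups, against 4.45, 2.67 and 5.13 in wild-type pups, without overlap. Its rise of 1.82 (SE 0.55, adjusted p = 0.019) lost its call without wild-type library 2, KEAP1-deficient library 2 or KEAP1-deficient library 3, with adjusted p-values of 0.067, 0.068 and 0.06, and with the muscle covariate (1.11, adjusted p = 0.14). Cxcr2 had 144.0, 172.7 and 158.7 in KEAP1-deficient pups, against 57.9, 52.5 and 74.4 in wild-type pups. This tight pair of groups gave a log2 fold change of 1.36 (adjusted p = 9.2e-05, SE 0.17).

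The members not called in KEAP1-deficient pups varied between libraries. Cxcl2 had 6.4, 37.2 and 4.32 against 0.89, 2.67 and 13.7 in wild type, Csf3 had 6.4, 11.3 and 0 against 0.89, 0 and 0, and Ccl2 had 109.9, 23.7 and 113.4 against 37.4, 38.2 and 35.9. Cxcl3 gave all of its 7 reads in library 2, against 2 reads in wild type, a ratio per size factor of 4.35 (95% interval 0.828 to 42.9, counting error only). The ratio of Csf3 was 19.9 (16 reads against 1, 95% interval 3.09 to 833.7, counting error only), while its fitted fold change was 3.64. Without KEAP1-deficient library 3, in which it had no read, Csf3 was called (2.95, adjusted p = 0.04). Library 2 of the KEAP1-deficient pups had the highest value of its group for 6 members and the lowest for Ccl2 and Ccl20.

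In L30F/L30F pups 3 of the 8 genes rose, Ccl20, Cxcl5 and Cxcr2, where 39.2% of all genes were called, 22% as higher. Their median log2 fold change was 1.54, against -0.03 over all genes, and 4 members had no overlap with wild type, as for 27% of all genes. Ccl20 had 42.8, 50.3 and 33.8 in L30F/L30F pups, against 0, 3.56 and 0.856 in wild-type pups. Every mutant library was several times the highest wild-type library, at a log2 fold change of 4.39 (adjusted p = 8.4e-05, SE 0.51). Cxcr2 had 147.4, 115.3 and 135.2 against 57.9, 52.5 and 74.4 in wild type, again without overlap, and rose by 1.10 (SE 0.17, adjusted p = 0.00057).

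Cxcl5 had 62.8, 3.94 and 9.22 in L30F/L30F pups, against 0, 3.56 and 1.71 in wild-type pups. Mutant library 1 alone stood far from wild type, and mutant library 2 was close to the highest wild-type library. The log2 fold change was 2.68 (SE 0.93, adjusted p = 0.045), and this call ended in 7 of the 9 fits that left out a library and under 9 of 12 other settings. Its value was 1.62 without L30F/L30F library 1, 3.46 without library 2, 2.94 without library 3, the library with no Ddx3y reads, 2.07 without wild-type library 1 and 2.79 without wild-type library 3. Those 5 fits gave adjusted p-values of 0.11, 0.018, 0.067, 0.14 and 0.092, and leaving out KEAP1-deficient library 1, 2 or 3 gave 0.057, 0.051 and 0.063. Cxcl1 had 11, 5.91 and 29.7 in L30F/L30F pups, against 4.45, 2.67 and 5.13 in wild type, which did not overlap, with an adjusted p of 0.059, and was called without L30F/L30F library 2 (log2 fold change 1.95, adjusted p = 0.021). Cxcl2, Cxcl3, Csf3 and Ccl2 overlapped with wild type and were not called, although Cxcl2 was without wild-type library 3 (2.70, adjusted p = 0.036). The ratio per size factor was 8.56 for Cxcl3 (15 reads against 2, 95% interval 1.99 to 77.1) and 10.3 for Csf3 (9 against 1, 1.42 to 450.0). These intervals cover counting error only, and mutant library 1 held 12 of the Cxcl3 and 8 of the Csf3 reads.

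**Figure D4:**
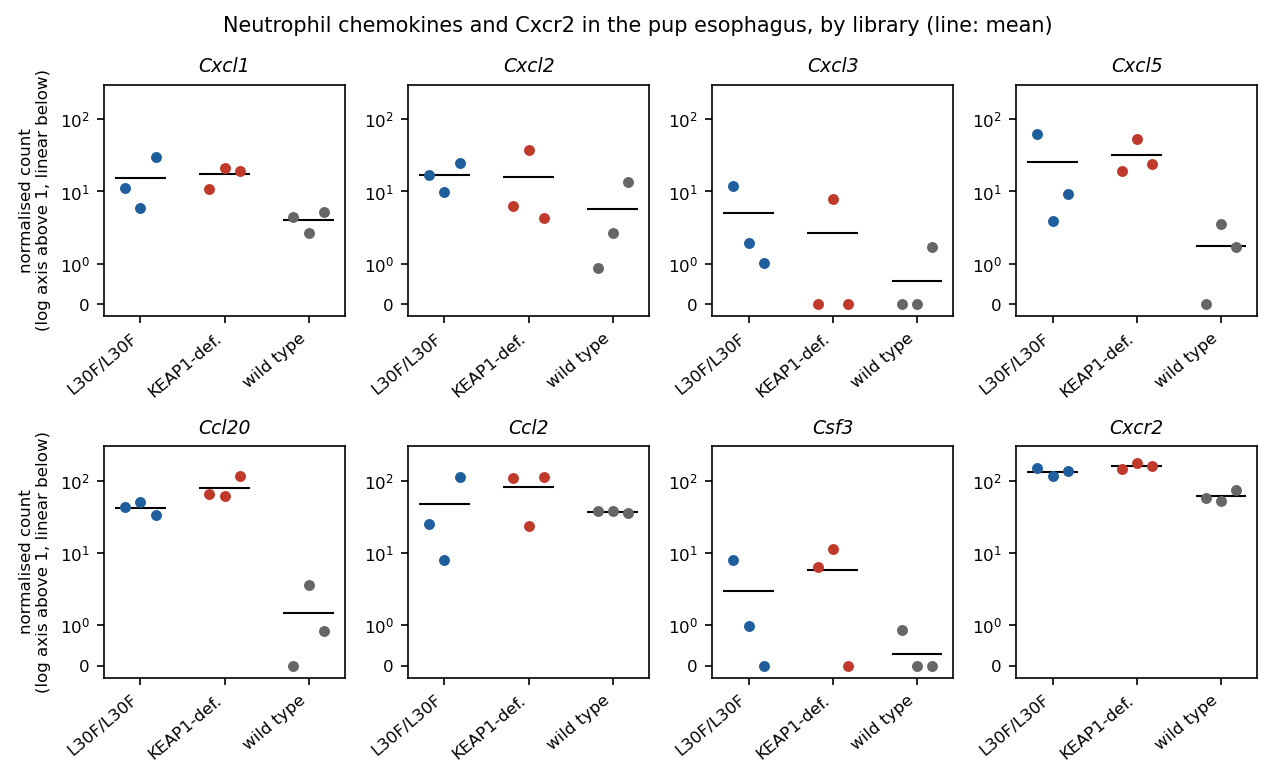
Normalised counts of the 8 genes in each of the 9 pup libraries, by genotype (log axis above 1, linear below; points are libraries, lines are group means). Ccl20 and Cxcr2 of both mutant groups lie above wild type without overlap, while Cxcl2, Cxcl3, Ccl2 and Csf3 overlap with it.

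Between L30F/L30F and KEAP1-deficient pups limma called none of the 8 genes, where 4.17% of all genes were called. At an unadjusted p under 0.05 there was also 0, and limma-voom called 0. The differences stayed wide: that of Ccl20 was -0.87 (SE 0.51, adjusted p = 0.34), although its L30F/L30F values, 42.8, 50.3 and 33.8, were all below the KEAP1-deficient values, 65.1, 60.9 and 114.5, as for 16.7% of all genes. That of Cxcr2 was -0.26 (95% interval -0.64 to 0.12) and that of Cxcl5 -1.02 (-3.11 to 1.06).

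Receptors and upstream genes of the pups gave mixed counts. Of 17 further attractants and receptors tested, 4 rose and 3 fell in KEAP1-deficient pups, and 5 rose and 2 fell in L30F/L30F pups. Ccr6, the receptor of CCL20, and Cxcr1 were not among the genes listed for pups. Ackr1 rose by 1.49 in KEAP1-deficient and by 1.25 in L30F/L30F pups on the log2 scale, and Ltb4r1, a leukotriene receptor on neutrophils, by 1.87 in KEAP1-deficient and 1.48 in L30F/L30F pups. Csf3r averaged 46.6 ± 23.3 in KEAP1-deficient pups (adjusted p = 0.054) and 55.5 ± 7.14 in L30F/L30F pups (log2 fold change 1.37, adjusted p = 0.018), against 21.8 ± 8.3 in wild type. Ccr2 rose in KEAP1-deficient pups (1.44, adjusted p = 0.034) and was not called in L30F/L30F pups (0.61, adjusted p = 0.35). Cxcr4 and Pf4 had the smallest adjusted p-values among the falls in KEAP1-deficient pups, at -0.93 and -1.64, and Cxcl14 rose by 1.14 in L30F/L30F pups.

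Of 20 upstream genes tested, 13 rose and none fell in KEAP1-deficient pups, and 9 rose and 2 fell (Nfkb2 and Rel) in L30F/L30F pups, with medians of 0.80 and 0.50. Il1a averaged 1452 in KEAP1-deficient and 946.2 in L30F/L30F pups, against 113.6 in wild type, log2 fold changes of 3.66 and 3.03 (adjusted p = 1.1e-08 and 6.0e-08). In KEAP1-deficient pups Nfkbia rose by 2.46, Il17rc, a subunit of the interleukin-17 receptor, by 2.88 and the transcription factor gene Cebpb by 2.55, and in L30F/L30F pups they rose by 1.96, 2.37 and 2.18. Il17a, again picked out after its values were seen, had 4.27, 7.9 and 15.1 in KEAP1-deficient pups and no read in wild-type pups. It was 0, 1.97 and 0 in L30F/L30F pups.

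Neutrophil markers of pups split. The list summed to 500.0 to 790.0 in KEAP1-deficient pups and 427.8 to 1770 in L30F/L30F pups, against 2302 to 3496 in wild-type pups, where Ltf, lactoferrin, made up 82.7% of the summed mean. Of 13 tested, 5 rose and 2 fell (Ltf and Cd177) in KEAP1-deficient pups, and 7 rose and 1 fell (Cd177) in L30F/L30F pups. Ly6g had 8.53, 3.39 and 8.64 in KEAP1-deficient and 9.96, 4.93 and 5.12 in L30F/L30F pups, against a single read in wild type. Of the 5 pan-leukocyte markers, Cd52 rose in KEAP1-deficient pups and none was called in L30F/L30F pups, with list sums of 623.0 to 1204 and 865.4 to 1119, against 818.3 to 979.7 in wild-type pups. Squamous markers summed to 317789 to 357820 in KEAP1-deficient and 239262 to 280369 in L30F/L30F pups, against 136222 to 158220 in wild type. Fibroblast markers summed to 97878 to 193896 in KEAP1-deficient and 159730 to 226109 in L30F/L30F pups, against 459532 to 496420 in wild type, and 5 of 6 fell in each mutant. Of 9 monocyte and macrophage markers tested, 2 rose and 6 fell in KEAP1-deficient pups, and 2 rose and 1 fell in L30F/L30F pups. The part of these cell types in the rises of the members was not tested.

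The effect of KEAP1 loss differed between adults and pups for 4 members, each with the larger effect in adults, where 47.1% of genes had a called difference and 20.6% a higher one. The difference of log2 fold changes, adults minus pups, was 5.23 for Cxcl3 (SE 1.32, adjusted p = 0.0027), 4.14 for Cxcl2 (SE 1.27, adjusted p = 0.0094), 2.95 for Cxcl1 (SE 0.95, adjusted p = 0.013) and 3.21 for Csf3 (SE 1.27, adjusted p = 0.048). The call of Csf3 ended in 10 of the 25 fits that left out a library, with 2.13 (adjusted p = 0.16) without KEAP1-deficient pup library 3, in which Csf3 had no read, 2.63 (adjusted p = 0.1) without KEAP1-deficient adult library 1 and 3.94 (adjusted p = 0.032) without KEAP1-deficient pup library 2. The difference of Cxcl2 was 5.01 without KEAP1-deficient pup library 2, 4.79 without wild-type pup library 1 and 3.31 without wild-type pup library 3. For Cxcl3 it was 6.29 without KEAP1-deficient pup library 2 and 5.89 without wild-type adult library 2, and for Cxcl1 2.36 (adjusted p = 0.044) without wild-type adult library 1. With an offset of 0.1 in place of 1, the differences of Cxcl2, Cxcl3 and Csf3 were not called (adjusted p = 0.061, 0.069 and 0.31). Cxcl3 and Csf3 had few reads in pups, where the fitted scale understates a change. For Csf3 the ratio of KEAP1-deficient to wild type was 19.9 in pups (95% interval 3.09 to 833.7) and 159.6 in adults (54.3 to 777.0). These intervals cover counting error only, and they overlap.

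Cxcl5 had a difference of 3.04 (SE 1.28, adjusted p = 0.055). It was called with an offset of 4 (3.39, adjusted p = 0.0054), in a single random draw of reads thinned to equal depth (4.63, adjusted p = 0.006) and in 8 of the 25 fits that left out a library (3.04 to 3.72). Ccl20 differed by -0.54 (95% interval -2.27 to 1.19), Cxcr2 by 0.37 (-0.32 to 1.06) and Ccl2 by 0.23 (-2.08 to 2.54), none of them called. Csf3r, the receptor of the Csf3 product, had a difference of 3.90 (adjusted p = 9.0e-05) and Il1b of 4.97 (adjusted p = 0.00072), and all 5 pan-leukocyte markers had a called difference with the larger effect in adults. Of the 20 upstream genes tested, 10 had a higher and 6 a lower effect in adults, the 6 being Il1a (-1.70), Nfkbia (-1.06), Il17rc (-2.82), Cebpb (-1.90), Traf3ip2 and Cebpd. Age, the kind of Cre and tamoxifen changed together between the experiments and cannot be told apart.

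For L30F/L30F the effect differed between adults and pups in 1 member, Cxcr2, where 33.5% of genes had a called difference and 19.9% a lower one. Cxcr2 rose in L30F/L30F pups (1.10) and had a log2 fold change of -0.50 in L30F/L30F adults, a difference of -1.61 (SE 0.33, adjusted p = 0.00053). It was called in all 25 fits that left out a library and under the 9 other settings run for it. Ccl20 differed by -1.34 (95% interval -3.07 to 0.39) and was called with an offset of 4 (-1.46, adjusted p = 0.041). Cxcl5 differed by -0.43 (-3.08 to 2.21) and Csf3 by 0.54 (-2.15 to 3.24).

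Over the 16 adult libraries, the genes outside the 8 whose pattern was most like each called member were found by Pearson correlation of log2(normalised count + 1) among 14583 genes with a mean of at least 2 CPM. The libraries share their genotype groups, so the coefficients describe mostly the step between KEAP1-deficient and other adults. They ran from 0.924 to 0.973 over 3 genes per member. Tnfaip3 was nearest to Csf3 (r = 0.973), with means of 635.2 normalised counts in KEAP1-deficient, 212.4 in L30F/L30F, 146.8 in L30F/+ and 151.2 in wild-type adults. The nearest to Cxcl5 was the TNF receptor gene Tnfrsf1b (r = 0.963), and Nlrp3, the inflammasome sensor, was also among its 3 nearest (r = 0.961), with means of 363.0 in KEAP1-deficient, 46.2 in L30F/L30F, 14.8 in L30F/+ and 20.2 in wild-type adults. Acod1, which makes itaconate in activated myeloid cells, was nearest to Cxcl2 (r = 0.939) and was also among the 3 nearest to Cxcl3 (r = 0.946), together with Cd274, the gene of PD-L1 (r = 0.940). Nearest to Cxcl1 was Zmpste24 (r = 0.931) and nearest to Cxcr2 Smox (r = 0.956), ahead of the interleukin-1 receptor antagonist Il1rn (r = 0.955) and Junb (r = 0.951). Ccl20 was nearest to Mthfd2 (r = 0.965), a mitochondrial folate enzyme with means of 236.6 in KEAP1-deficient, 197.8 in L30F/L30F, 154.0 in L30F/+ and 132.2 in wild-type adults.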

How the data were processed

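RNA of mouse esophagus was sequenced in 9 pup and 16 adult libraries. The deposited values are log2 of a normalised count plus 4, as the files themselves show, in 1 table per experiment. Per the submitters' processing notes, the authors used Salmon with GRCm39 (versions not given in the sources used here). Whole reads could be recovered within 0.1 read for all values up to 1000 reads, which gave the depth of each library. Columns were matched to groups by their labels. limma 3.58.1 (R 4.3.3, statmod 1.5.0; moderated test with intensity trend and robust variance) was run on log2(normalised count + 1), with all groups of an experiment in 1 fit. Genes needed a normalised count of at least 1 in 3 pup or 4 adult libraries, which left 21007 and 19857 genes, and p-values were adjusted by Benjamini-Hochberg over all of them, with a threshold of 0.05. Effects in adults and pups were compared over 19031 genes by the difference of fold changes with Welch-Satterthwaite degrees of freedom. The fits of both experiments were tested on simulated data, for KEAP1-deficient against wild type and the difference of its effect. Changes were simulated only in genes above a mean count that several members did not reach. L30F contrasts and limma-voom were not tested in this way. The tables hold log2 values, and edgeR and DESeq2 were not run, although the recovered reads could have served for them. limma-voom on recovered reads was added after the values were seen. Intervals for ratios of few reads cover counting error only. From each list, up to 4 called genes with a mean of at least 2 CPM were named by smallest adjusted p, besides the 8 members and their partner receptors. CPM were computed here from recovered reads. The 8 genes and the lists were chosen with earlier results of these data known. Genes with near-identical copies, such as Stfa2l1 and Mrgpra2a, are uncertain, since reads may be split between them.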

Additional observations from a re-analysis of the deposited data

Results flagged for a closer look

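Adult groups of 4 libraries were tested for a library far from its group (8 genes in 4 genotypes). In 6 of the 32 groups, 1 library stood apart. A rate of about 5% of groups by chance holds for continuous values. A group with reads in only 1 library is marked whatever its value, so the 6 cannot be set against that rate. Ccl20 had 78.3 normalised counts in KEAP1-deficient library 1, against 18.9 to 22.4 in the other 3. Each of the other 5 rests on a few reads: Cxcl3 with 3.49 in L30F/L30F library 4 and 1.43 in L30F/+ library 2, where the other libraries of the group were at 0, Csf3 with 2.44 in L30F/+ library 1, Ccl20 with 0.58 in wild-type library 2, and Csf3 with 0 in wild-type library 1. Groups of 3 pup libraries were not tested. A genotype's effect differed between adults and pups, by a test of the difference of log2 fold changes, for Cxcr2 in L30F/L30F mice (-1.61) and for Cxcl1 (2.95), Cxcl2 (4.14), Cxcl3 (5.23) and Csf3 (3.21) in KEAP1-deficient mice.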

How the results depend on the processing

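Of the results of single members under other settings, 2228 kept their side of the threshold, 38 gained a call and 60 lost it. In 44 of the 2228 the value changed sign, none of them called (lowest adjusted p 0.43), and no called result reversed. Numbers of called members changed most with the striated muscle covariate, which repeats part of the adult genotype difference: it gave 3 for KEAP1-deficient against wild-type adults (7 without it), 2 for L30F/L30F against wild type (1), 0 for L30F/L30F against L30F/+ (1), 0 for L30F/L30F against KEAP1-deficient (6) and 0 for L30F/+ against KEAP1-deficient adults (8). Limma-voom gave 0 for L30F/L30F against L30F/+, and with a replicate block 0 there, 2 for L30F/L30F and 1 for L30F/+ against wild type. Reads thinned to equal depth, in a single random draw, gave 3 for L30F/L30F against wild type. An offset of 0.1 gave 2 for L30F/L30F against L30F/+ and 1 for the KEAP1 effect in adults minus pups (4 with an offset of 1). For that difference a minimum count of 10 gave 2, since Cxcl3 and Csf3 did not pass this filter in pups and were not tested. An offset of 4 gave 2 for the L30F/L30F effect in adults minus pups (1). The cause of the other changes was not tested. Leaving out 1 library gave 0 to 1 for L30F/+ and 1 to 2 for L30F/L30F against wild type, 1 to 4 for L30F/L30F against L30F/+, 6 to 7 and 7 to 8 for L30F/L30F and L30F/+ against KEAP1-deficient adults, and 3 to 5 for the KEAP1 effect difference. Replicate numbers did not pair the libraries (correlations of deviations -0.10 to 0.22 over 9 pairs in pups and -0.07 to 0.10 over 24 in adults). With the number as a replicate block limma called 2 members in L30F/L30F and 4 in KEAP1-deficient pups, and 0, 1 and 7 in L30F/+, L30F/L30F and KEAP1-deficient adults. For L30F/L30F against KEAP1-deficient adults it called 7, since Ccl20 gained a call (adjusted p = 0.043, and 0.01 with limma-voom and the block). Cxcl5 lost its call in L30F/L30F against wild-type pups (adjusted p = 0.088), and the block changed no other call of limma on a member. edgeR, DESeq2 and a Ddx3y covariate in adults, where all libraries had Ddx3y reads, were not run.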
